A study of Drosophila melanogaster with 4 samples.

Results

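The mitochondrial ribosomal protein genes were the 72 symbols, among 7845 listed in all 4 tables, that begin with mRpL (46 genes of the large subunit) or mRpS (26 genes of the small subunit). The rule read the symbols only, and earlier results of these data were known when it was set. Single-cell RNA-seq was performed on wing imaginal discs of *scrib* mutant larvae (genotype scrib-/-FRT82B, from the parental strain scrib[1]FRT82B/TM6B) at 4, 5, 8 and 14 days after egg laying (AEL). The Scribble protein maintains apicobasal polarity, and discs that lack it grow into tumors over an extended larval life. Each age was 1 library of cells dissociated with trypsin, with no disc of another genotype and no replicate, so age and library cannot be told apart and no test between ages was possible. Values with ± are 95% half-widths that cover the counting of molecules only.

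Mitochondrial ribosomes translate the messages of the mitochondrial genome, which in animals encode subunits of the respiratory chain and of ATP synthase. Their RNAs are made in the mitochondrion, whereas their proteins are encoded in the nucleus, made on cytosolic ribosomes and imported. In *Drosophila*, mutations in tko, which encodes the protein S12 of the small subunit, delay larval development, and mRpL12 was shown to be needed for growth driven by Cyclin D and Cdk4. A level is given here as the mean over cells of a gene's unique molecular identifiers (UMIs, each marking 1 captured mRNA molecule) per 10000 UMIs of the cell.

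The libraries held 3785, 6457, 3104 and 1110 cells at days 4, 5, 8 and 14, with median depths of 18299 to 23326 UMIs per cell. Between 5 and 34 cell barcodes were shared by any pair of libraries, at most 1.08% of the smaller one. The cells carried the epithelial markers of the disc, such as Fas3, and a myoblast-like cluster with twi, Him and htl held 162, 395, 209 and 42 cells in order of age. No hemocyte or fat body marker that was looked for had a row in the tables used here. Cytosolic ribosomal protein genes took 49.2%, 48.2%, 48.1% and 41.4% of all UMIs, so the values of all other genes at day 14 were set against a smaller ribosomal share.

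Expression of the mitochondrial ribosomal protein genes declined with tumor age. The summed level of the 72 genes was 58.3 per 10000 UMIs at day 4, 56.6 at day 5, 45.8 at day 8 and 39.4 at day 14. The SD over cells was 17.5, 15.6, 12.9 and 11.7 in the same order, so the spread of cells at day 4 was close to the distance between the youngest and the oldest library and that at days 8 and 14 was smaller. Of all UMIs, the share of these genes was 0.604% at day 4 and 0.391% at day 14, from 550168 and 87918 UMIs. The median cell held a UMI of 58 of the 72 genes at day 4 and of 44 at day 14. With every cell thinned to 12859 UMIs, which left out 443 cells at day 4, 1210 at day 5 and none at days 8 and 14, the median cell held a UMI of 45, 44, 38 and 34 of them.

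At day 14 against day 4, the 72 genes had a median log2 ratio of -0.61, whereas the median of all 5187 genes with a mean level of at least 0.1 was 0.30. All 72 genes passed that filter. Of the 72, 69 lay below 0 (all genes 30.6%). Lower by at least 0.5 on the log2 scale (a 1.41-fold difference) were 48, against 8.79% of all genes. None of the 72 was higher by at least 0.5, against 38.3% of all genes. The counting interval lay below 0 for 69 genes, above 0 for 2 and covered 0 for 1. For all 5187 genes these counts were 1296, 3251 and 640. At the threshold, mRpL40 lay just inside at -0.50 and mRpL10 just outside at -0.49.

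The decline was placed between day 5 and day 8 and went on to day 14. From day 4 to day 5 the median log2 ratio was -0.04 (all genes 0.01) and none of the 72 genes passed the fold in either direction, against 0.366% of all genes lower and 2.06% higher. From day 4 to day 8 the median was -0.35 (all genes 0.08) and 71 of 72 genes lay below 0 (all genes 39.2%). Of the 72, 8 were lower by at least 0.5, against 3.68% of all genes. None was higher by that much, against 12.9% of all genes. From day 8 to day 14 the median was -0.20 (all genes 0.21), with 64 of 72 genes below 0, against 28.4% of all genes. Relative to all genes this step (-0.41) was about as large as that from day 5 to day 8 (-0.40). Levels went down at each later age for 45 of the 72 genes (62.5%), an order seen in 9.31% of all genes, and none of the 72 went up at each later age, an order seen in 29.8% of all genes. The lowest of the 4 levels was at day 14 for 64 of the 72 genes (88.9%), against 23.7% of all genes.

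**Figure D1:**
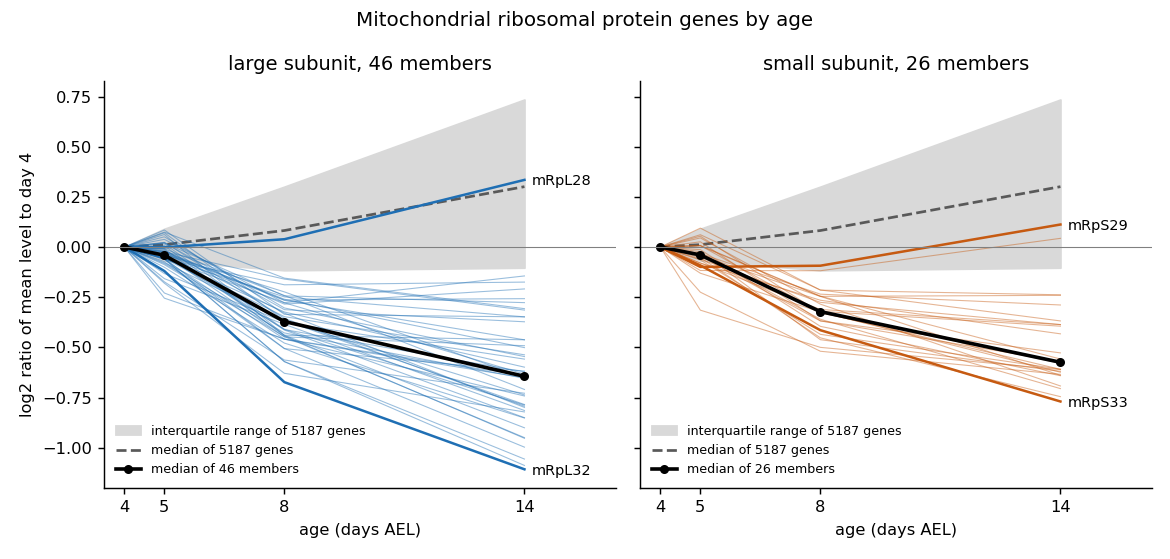
Log2 ratio of each gene's mean level to day 4, against age in days AEL, for the 46 large subunit genes (left, blue lines) and the 26 small subunit genes (right, orange lines). The black line is the median of the subunit, the grey band and the dashed line are the interquartile range and the median of 5187 genes. Both subunit medians ran flat to day 5 and reached -0.64 and -0.57 at day 14, with mRpL28 alone near the dashed line.

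Both subunits declined. Large subunit genes summed to 36.7, 35.6, 28.4 and 24.0 per 10000 UMIs in order of age and small subunit genes to 21.7, 21.05, 17.4 and 15.3. The ratio of large to small was 1.69, 1.69, 1.64 and 1.57, so the large subunit lost somewhat more. At day 14 against day 4, 32 of 46 large subunit genes (median -0.64) and 16 of 26 small subunit genes (median -0.57) were lower by at least 0.5. Of all genes, 8.79% were lower by that much. Genes numbered after a bacterial counterpart (mRpL up to 36 and mRpS up to 21, 42 genes) had a median of -0.63, and those with higher numbers, most of them found in mitochondrial ribosomes but not in bacterial ones, a median of -0.59 (30 genes). mRpS18A (-0.39) and mRpS30 (-0.62) are counted in the small subunit by their symbols, although in mammalian structures these proteins sit in the large subunit.

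The lowest ratios all belonged to the large subunit. mRpL32, whose protein is matured by the m-AAA protease in yeast and mouse, had levels of 0.601, 0.553, 0.377 and 0.279 in order of age, a log2 ratio of -1.11 ± 0.12 at day 14 against day 4. mRpL20, whose bacterial counterpart joins the large subunit early in its assembly, had levels of 0.856, 0.822, 0.576 and 0.403 (-1.09 ± 0.10). mRpL52, a protein without a bacterial counterpart, had levels of 1.07, 1.03, 0.720 and 0.514 (-1.06 ± 0.09). These 3 genes stepped down at each age and were the ones past 1 on the log2 scale. mRpL35 (-0.997 ± 0.10) and mRpL13 (-0.95 ± 0.10) followed. mRpL32 was found in 69.1% of cells at day 4 and 40.8% at day 14, and after thinning in 52.5% and 29.4%, so the share was lower at equal depth too.

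The most abundant genes also declined. mRpL12, which forms the flexible stalk of the large subunit, had the highest mean level of the 72 with 1.88, 1.96, 1.38 and 1.01, the highest value being at day 5 (-0.90 ± 0.06 at day 14 against day 4). mRpS10, the most abundant of the small subunit, had levels of 1.66, 1.71, 1.36 and 1.03 (-0.69 ± 0.06). mRpS16 had levels of 1.54, 1.55, 1.23 and 1.01 (-0.61 ± 0.06). For all 3 the levels at days 4 and 5 were close and those at days 8 and 14 stepped down. The ratios of the other abundant large subunit genes were -0.65 for mRpL27, -0.55 for mRpL23, whose bacterial counterpart sits at the exit of the peptide tunnel, -0.54 for mRpL30 and -0.56 for mRpL49. Among the abundant small subunit genes, mRpS14 was at -0.63 and mRpS25 at -0.57. mRpS7, whose bacterial counterpart nucleates the head of the small subunit, differed less, with levels of 1.31, 1.403, 1.13 and 1.11 (-0.24 ± 0.06).

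The exceptions were 3 genes with ratios above 0. mRpL28, a large subunit protein with a bacterial counterpart, had levels of 0.867, 0.867, 0.891 and 1.09, a log2 ratio of 0.33 ± 0.07 at day 14 against day 4. mRpS29, known in mammals as the death-associated protein DAP3 and the GTP-binding protein of the small subunit, had levels of 0.498, 0.465, 0.467 and 0.538 (0.11 ± 0.09). mRpS22 had levels of 0.531, 0.490, 0.490 and 0.548 (0.04 ± 0.09). All 3 were highest at day 14, as were 3306 of all 5187 genes, and only mRpL28 exceeded the median of all genes. Relative to that median, mRpL28 was at 0.03, mRpS29 at -0.19 and mRpS22 at -0.26, and the signs of the last 2 also turned when the cytosolic ribosomal protein genes were left out of each cell's total (-0.13 and -0.21, with mRpL28 at 0.12). The next highest ratios were -0.14 for mRpL1 and -0.18 for mRpL39.

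The ratio went with transcript length. Over the 72 genes, the length of the longest annotated transcript (327 to 2078 bases, Ensembl BDGP6) and the log2 ratio of day 14 to day 4 had a Spearman correlation of 0.47, and over the 4631 of all genes with a length (89.3%) it was 0.55. The shortest 24 of the 72 genes had a median of -0.68 and the middle 24 a median of -0.64, against -0.37 and -0.22 for all genes of the same length ranges. The longest 24 had a median of -0.38, against 0.12. In each length range the genes of the mitochondrial ribosome thus lay below the median of all genes of that length, by less than their distance from the median of all lengths. Of 1350 genes within both the length range and the level range of the 72, 13.9% were lower by at least 0.5, against 66.7% of the 72 genes. Their median length was 1242 bases, against 778.5 for the 72, so lengths were not matched. In the length ranges of the shortest, middle and longest 24, 34.8%, 25.5% and 9.03% of all genes were lower by that much. Of the 24 genes in each range, 91.7%, 70.8% and 37.5% were. Whether the relation with length goes with the libraries or with the age of the tissue cannot be told apart with 1 library per age. mRpL28 (1170 bases), mRpS29 (1440 bases) and mRpS22 (1341 bases) were among the longest 24.

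**Figure D2:**
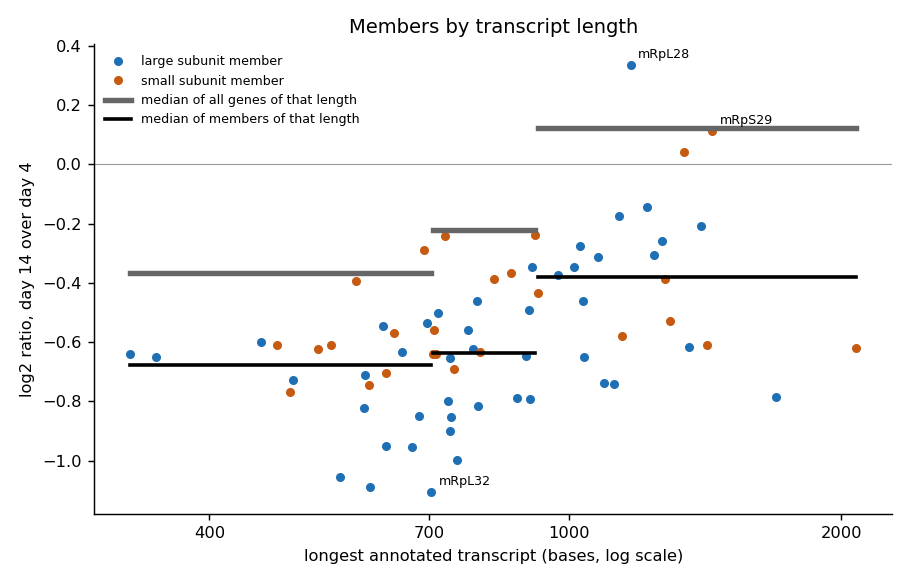
Log2 ratio of day 14 to day 4 (vertical axis) against the length of the longest annotated transcript in bases (horizontal, log scale) for the 72 genes, blue for the large and orange for the small subunit. Black bars are medians of the shortest, middle and longest 24 genes (-0.68, -0.64 and -0.38) and grey bars are medians of all genes in the same length ranges (-0.37, -0.22 and 0.12).

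Mitochondrial ribosomal proteins that carry older names were read from a separate list. tko had levels of 1.996, 2.04, 1.72 and 1.30 in order of age, a log2 ratio of -0.62 ± 0.06 at day 14 against day 4. bonsai, which encodes the protein S15 of the small subunit and was named for the small size of its mutants, had levels of 0.744, 0.698, 0.526 and 0.378 (-0.98 ± 0.10). Both were lower by at least 0.5, as 48 of the 72 were.

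The nuclear genes that encode the respiratory chain and ATP synthase were also mostly lowest at day 14. This list and those that follow were not matched for transcript length, with which the ratio went over all genes. The part of length in differences between lists was not tested. Of 64 such genes past the level filter, 43 were lower by at least 0.5 at day 14 against day 4 (all genes 8.79%). None was higher by that much (all genes 38.3%) and their median was -0.67. The level was lowest at day 14 for 62 of the 64 (all genes 23.7%) and went down at each later age for 30 (all genes 9.31%). COX7C, a subunit of cytochrome c oxidase, had levels of 7.48, 6.72, 4.63 and 3.03, a log2 ratio of -1.30. ATPsynG, a subunit of ATP synthase, had levels of 11.6, 10.97, 7.77 and 5.29 (-1.13). Both stepped down at each age.

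All 11 import and chaperone genes lay below 0 at day 14 against day 4 (median -0.36, range -1.10 to -0.11), against 30.6% of all genes. Of the 11, 3 were lower by at least 0.5 (all genes 8.79%). Tom7, a small subunit of the outer membrane translocase, was at -1.10, Tim9a at -0.95 and Tom20 at -0.65, while Hsp60A, the matrix chaperonin, was at -0.26. In the wider translation machinery the signs at day 14 against day 4 were mixed. The 7 translation factors past the filter had a median of 0.02, with 4 above 0 (all genes 69.4%) and 3 below. The counting interval lay above 0 for 1, below 0 for 3 and covered 0 for 3. All 7 lay below the median of all genes. At day 8 against day 4 all 7 lay below 0 (median -0.20), against 39.2% of all genes. Of the 7 at day 14 against day 4, mEFTu1, an elongation factor, was at -0.59 ± 0.07. mRRF1, a ribosome recycling factor, was at -0.82 ± 0.21, while mEFTs was at 0.09 ± 0.10 and mEFG1 at 0.170 ± 0.165. The 5 mitochondrial aminoacyl-tRNA synthetases past the filter, of 16 listed, had a median of 0.12. TyrRS-m alone was lower by at least 0.5 (-0.79 ± 0.19), against 8.79% of all genes.

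Of the genes that copy and transcribe mitochondrial DNA, the 6 past the filter had a median of -0.07 and none passed the fold. TFAM, which packages mitochondrial DNA and starts its transcription, had levels of 0.728, 0.707, 0.661 and 0.667 (-0.13 ± 0.08). mtSSB, which binds single-stranded mitochondrial DNA, was at -0.35 ± 0.06. None of the 15 mitochondrially encoded RNAs of the list, the rRNAs among them, was analysed here, as no symbol of the tables matched.

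The cytosolic ribosomal proteins had ratios closer to 0 than the mitochondrial ones. Of 84 genes at day 14 against day 4, 11 were lower by at least 0.5 (13.1%, all genes 8.79%) and none higher (all genes 38.3%). Their median was -0.29 at day 14 and -0.05 at day 8 against day 4. For the 72 mitochondrial genes these medians were -0.61 and -0.35. Of 14 ribosome biogenesis genes, 12 lay below 0 (median -0.28), against 30.6% of all genes. None was lower by at least 0.5 (all genes 8.79%). Myc and Non1 were the only 2 above 0. Myc, the transcription factor that drives growth and ribosome production, had levels of 2.99, 2.45, 3.24 and 5.87 (0.98 ± 0.03), and Non1, a nucleolar GTP-binding protein, levels of 6.51, 5.92, 7.68 and 13.7 (1.08 ± 0.02). Both were highest at day 14, as were 3306 of all 5187 genes, in the library in which the mitochondrial ribosomal protein genes were lowest.

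**Figure D3:**
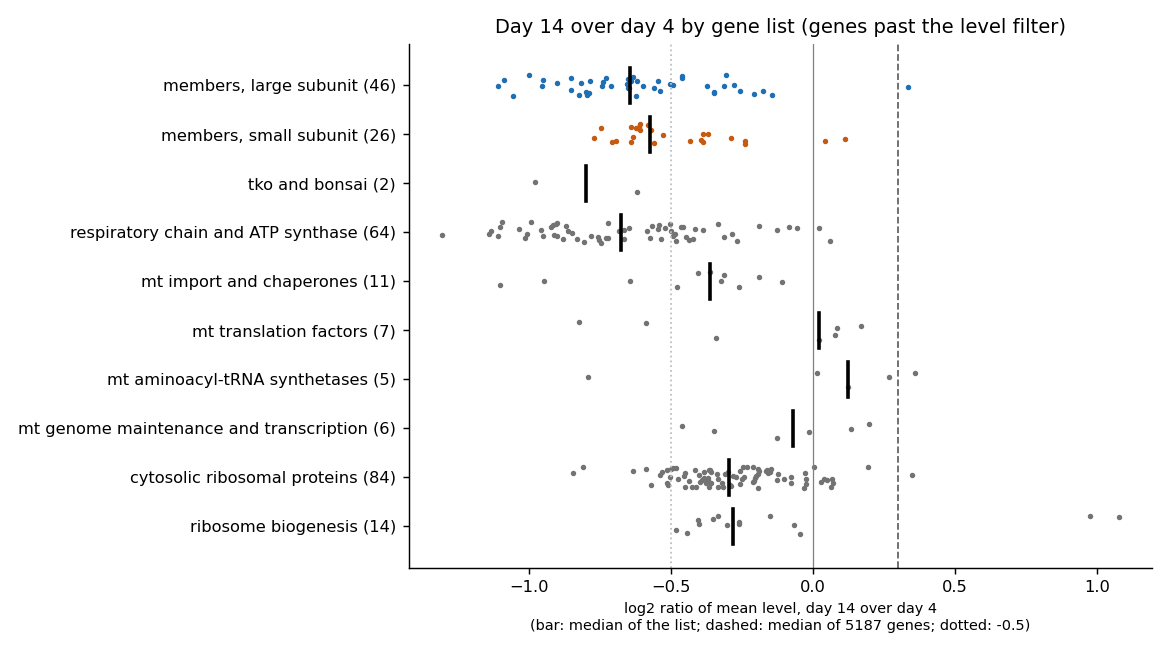
Log2 ratio of day 14 to day 4 for each gene past the level filter (points, with vertical jitter), by gene list, with the number of genes in parentheses. Black bars are list medians, the dashed line is the median of 5187 genes (0.30) and the dotted line the threshold of -0.5. Mitochondrial ribosomal protein genes and respiratory chain genes lie furthest to the left among the lists of more than 2 genes, and Myc and Non1 are the points at the right. The lists are not matched for transcript length.

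Cells within a library differed widely in these genes. At day 4, cluster means of the summed level ran from 45.5 to 74.6 per 10000 UMIs. The highest cluster was led by Ama and lama (433 cells), followed by CG1673 and CG13230 (132 cells, 72.8) and by wg and CG13692 (907 cells, 71.6). The lowest were the myoblast-like cluster (45.5) and a cluster led by magu and Notum (713 cells, 45.7). At day 5 the highest cluster was led by sog and upd1 (1556 cells, 70.6), and at day 8 by upd1 (578 cells, 55.9). At day 14 a cluster with upd1 among its 10 leading genes was again the highest (235 cells, 51.9) and a cluster led by Cpr49Ac the lowest (31 cells, 29.95). upd1 encodes a ligand of the JAK/STAT pathway. The clusters were built from the variable genes of the same cells without the 72 genes, and these values are descriptions. Between clusters lay 44.1%, 32.4%, 26.9% and 37.0% of the variance of the module score, the mean of the log values of the 72 genes in a cell.

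The decline was found in the cells outside the myoblast-like cluster. The myoblast-like cells were also lower at day 14 than at day 4, but their values lay closer together, a difference that was not tested. In the cells outside the myoblast-like cluster, pooled UMIs of the 72 genes were 60.8, 58.0, 46.3 and 39.1 per 10000, and in the myoblast-like cells they were 47.7, 50.8, 42.3 and 39.7. Myoblast-like cells thus started lower and were close to the other cells at day 14. All 8 epithelial markers of the list were higher in the myoblast-like cells at day 14 than at day 4. Their summed level there was 2.68, 3.07, 4.20 and 9.89 in order of age (Fas3 0.153 at day 4 and 3.12 at day 14). In the other cells the sum was also higher, 10.9 at day 4 and 17.7 at day 14. Of the 7 myoblast markers, 6 were higher in the myoblast-like cells at day 14 than at day 4 (summed level 6.83 and 7.78). The part of the markers in the result was not tested. Without the myoblast-like cells the median log2 ratio of day 14 to day 4 was -0.63 and 48 genes were again lower by at least 0.5.

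The 2 subunits varied together across cells. The Pearson correlation of their scores was 0.84, 0.77, 0.72 and 0.71 at days 4, 5, 8 and 14 (3785, 6457, 3104 and 1110 cells) and 0.72, 0.67, 0.64 and 0.62 for the summed levels after thinning. All cells of a library share its preparation, and the module score went with the depth of the cell (r with log UMIs 0.47, 0.36, 0.21 and 0.02). The correlation of the module with the respiratory chain score was 0.84, 0.78, 0.81 and 0.82, and with import and chaperones 0.84, 0.77, 0.71 and 0.70. With ribosome biogenesis it was 0.64, 0.58, 0.56 and 0.55, and given the depth of the cell 0.61, 0.58, 0.55 and 0.55. For summed levels after thinning, where abundant genes weigh more, it was 0.40, 0.42, 0.30 and -0.05. At day 14 the value thus hung on the measure used. For the respiratory chain the thinned values were 0.78, 0.72, 0.76 and 0.77, and for import and chaperones 0.76, 0.70, 0.66 and 0.65. The cytosolic ribosomal proteins differed in sign by library, with -0.46, -0.30, -0.17 and 0.22. Every score is a share of the same cell total, of which the cytosolic ribosomal proteins took 41.4% to 49.2%, and the part of that shared total in these correlations was not tested.

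Mmp1, a matrix metalloproteinase used as a target of JNK signaling, marked cells in which the 72 genes took a smaller share of all UMIs. In cells with 5 or more Mmp1 UMIs per 10000, the summed level was 49.7 at day 4 (265 cells), 47.1 at day 5 (526 cells), 40.9 at day 8 (92 cells) and 34.5 at day 14 (37 cells). In cells with no Mmp1 UMI it was 56.6, 56.8, 46.5 and 41.3. The log2 ratios were -0.19, -0.27, -0.19 and -0.26, with counting half-widths of 0.01 to 0.06, and in each library the difference in level was smaller than the SD over cells. The number of UMIs was not lower at every age. Cells with 5 or more Mmp1 were deeper (median 28440 UMIs at day 4, against 20141 in cells with none), and they held on average 145.8, 128.2, 106.9 and 71.8 UMIs of the 72 genes, against 123.9, 106.2, 88.4 and 79.4. The relation of the share was not a steady one, since at days 4 and 5 cells with a trace of Mmp1 (above 0 and under 1) had the highest summed levels, 63.1 and 60.0. Those cells were also deeper than cells with none (medians 26437 and 22135 UMIs, against 20141 and 16750.5). The summed level went with depth at these ages (r with log UMIs 0.33 and 0.18). The part of depth in this shape was not tested.

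Across all cells the correlation of the module score with Mmp1 was weak, with r of -0.07, -0.13, -0.08 and -0.14 at days 4, 5, 8 and 14 and a mean of -0.11. Given the depth of the cell, it was -0.19, -0.24, -0.13 and -0.14. Within clusters, without adjustment for depth, the r was 0.04, 0.00, 0.06 and -0.04. Only the 72 genes were left out of the clustering, and Mmp1 was among the leading genes of a cluster at days 4 and 5. Cells were thus grouped in part by Mmp1 itself at these ages. The values within clusters therefore cannot decide whether the relation lay between clusters or within them. The clusters with most Mmp1 at days 4 and 5, led by CG13117 and CG12911, had summed levels of 49.4 and 46.8. Of the single genes, 57 of 72 had a mean r below 0 (all genes 55.8%), and 3 had a mean r of -0.1 or less, against 13.6% of all genes. These were mRpL2 (-0.16), whose bacterial counterpart lies at the peptidyl transferase centre, mRpS10 (-0.13) and mRpL20 (-0.11). None of the 72 had a mean r of 0.1 or more, against 16.8% of all genes. The 3 highest were mRpL52 (0.06), mRpS5 (0.05) and mRpS9 (0.04). Correlations of this size in sparse counts are given as a description only.

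**Figure D4:**
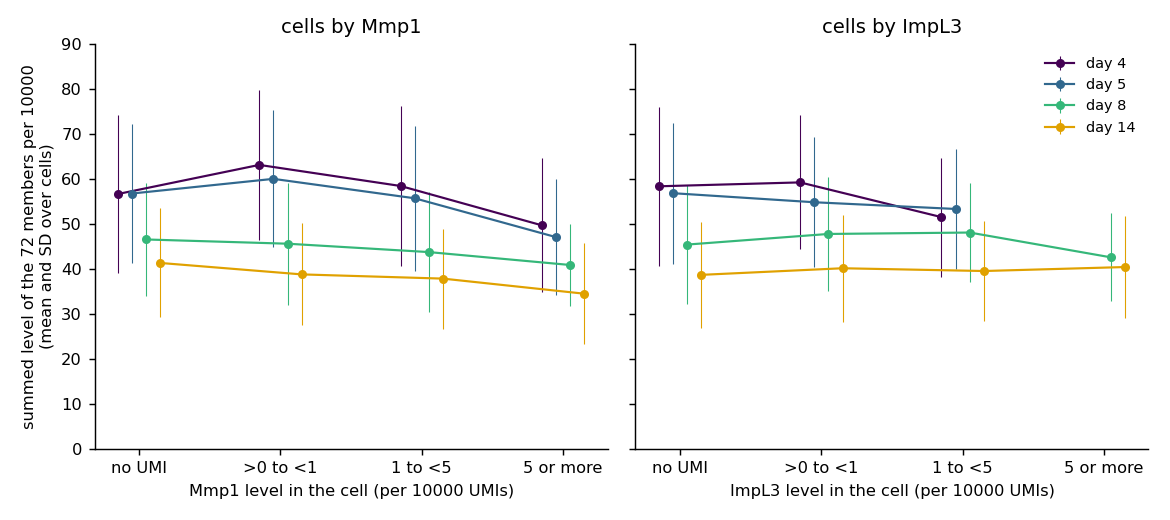
Summed level of the 72 genes per 10000 UMIs (mean over cells, bars are the SD over cells) in cells grouped by their Mmp1 (left) or ImpL3 (right) level, with 1 line per library. The points at 5 or more Mmp1 (49.7, 47.1, 40.9 and 34.5) lie below those without Mmp1 (56.6, 56.8, 46.5 and 41.3), and bins with fewer than 20 cells are not drawn.

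ImpL3, the lactate dehydrogenase gene, differed widely between the libraries, with levels of 0.0544, 0.111, 2.19 and 8.92. Across all cells of a library the module had little relation with it. The r of the module score with ImpL3 was -0.01, -0.01, -0.03 and -0.00. Within clusters it was 0.02, 0.03, -0.06 and -0.08. ImpL3 was among the leading genes of a cluster at days 8 and 14, so cells were grouped in part by ImpL3 at these ages. The values within clusters are a description only. At day 14 the summed level was 38.7 in the 540 cells with no ImpL3 UMI and 40.4 in the 162 cells with 5 or more per 10000 (log2 ratio 0.06 ± 0.03). At day 8 it was 45.4 in 2363 cells and 42.6 in 136 cells (-0.09 ± 0.03). A cluster of 32 cells at day 14 led by bnl, with an ImpL3 level of 146.8, had a summed level of 34.5. Of the 72 genes, none had a mean r with ImpL3 of -0.1 or less (all genes 2.08%) and 1 had a mean r of 0.1 or more (all genes 4.78%). The 3 lowest were mRpL27 (-0.07), mRpL47 (-0.06) and mRpL2 (-0.05).

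That single gene was mRpL28. Its r with ImpL3 was 0.05, 0.08, 0.24 and 0.36 at days 4, 5, 8 and 14, and its place was 70 of 5154 genes at day 8 and 80 of 5166 at day 14, counted from the highest r. mRpL22 and mRpL30 came next by mean r among the 72 genes (0.06 and 0.05). At day 14, mRpL30 stood second with 0.15 and mRpL27 last with -0.14. At day 14 the mRpL28 level was 0.800 in cells without an ImpL3 UMI, 1.09 in cells above 0 and under 5 per 10000 (408 cells) and 2.09 in cells with 5 or more (log2 ratio 1.38 ± 0.15, highest against none). At day 8 it was 0.778, 1.15 and 1.73 (1.15 ± 0.14). The other 71 genes together were at 37.9 and 38.3 at day 14 in cells without ImpL3 and with 5 or more, and at 44.6 and 40.8 at day 8. The sum of its partners was thus close to level at day 14 and lower at day 8 in the cells where mRpL28 was higher.

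Within clusters the r of mRpL28 with ImpL3 was 0.19 at day 8 and 0.28 at day 14. ImpL3 was among the leading genes of a cluster at both ages, so cells were grouped in part by ImpL3 itself. These values cannot decide whether the relation lay between clusters or within them. Without the cluster of most ImpL3 it was 0.17 at day 8 (435 cells left out) and 0.37 at day 14 (32 cells left out). In cells without an ImpL3 UMI, the mRpL28 level was 0.859 at day 4 and 0.800 at day 14, a log2 ratio of -0.10 ± 0.10 in place of 0.33. In the same cells the median of the 72 genes was -0.62. mRpL28 then stood at place 3 from the highest of the 72, after mRpS29 (0.10 ± 0.13) and mRpS22 (-0.05 ± 0.13). The day 14 mean of mRpL28 was above that of day 4 with the cells that carried ImpL3 included and not without them. mRpL28 was singled out by its r with ImpL3 in these same cells. These values therefore restate that r and are no separate support.

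mRpL28 (FBgn0031660) lies on chromosome 2L at 4973976 to 4975316 on the forward strand of Ensembl BDGP6 and overlaps Gmd on the other strand. Coordinates are those of the annotation, with the build behind the counts not given in the sources used here. Gmd, which encodes an enzyme of GDP-fucose synthesis, was at 0.252 and 0.253 at day 14 in cells without ImpL3 and with 5 or more, and at 0.255 and 0.273 at day 8. Its level therefore did not go with ImpL3 as that of mRpL28 did. Of the 72 genes, 41 overlap a gene on the other strand and 2 a gene on the same strand (mRpS14 and mRpL13), with the treatment of such overlaps in counting not given in the sources used here. These genes are spread over the chromosomes, with 12 on 2L, 11 on 2R, 17 on 3L, 21 on 3R and 11 on X.

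**Figure D5:**
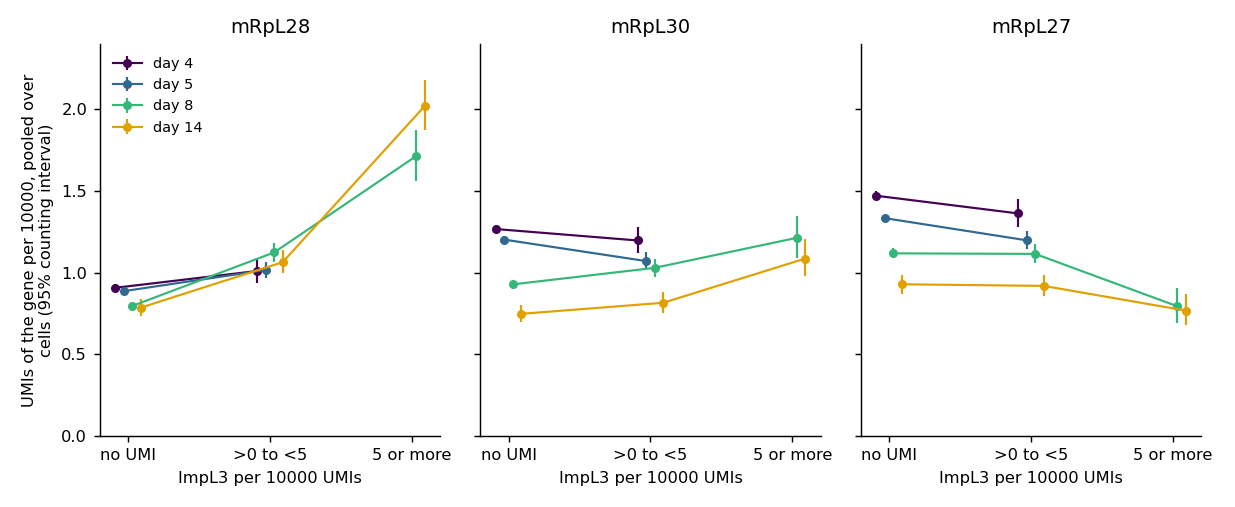
UMIs of mRpL28, mRpL30 and mRpL27 per 10000, pooled over cells with their 95% counting interval, in cells grouped by ImpL3 level, with 1 line per library. mRpL28 reaches 1.71 at day 8 and 2.02 at day 14 in cells with 5 or more ImpL3, from 0.795 and 0.785 in cells with none, whereas mRpL30 rises less and mRpL27 goes down, and the 5 and 17 such cells of days 4 and 5 are not drawn.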

How the data were processed

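Cells of 4 wing disc libraries (1 per age) were sequenced on the 10x platform. The authors mapped the reads with Cell Ranger and deposited, per library, natural log values made with Seurat, the log of 1 plus a gene's UMIs per 10000 of the cell. The Cell Ranger version, genome build and cell filters were not given in the sources used here, and no cell had more than 3998 genes. Taken back to linear values and divided by the step of 1 UMI, 100% of the values were whole to within 0.001, which gave the UMIs and depths used here. Levels are means of the linear values, and ratios are log2 ratios of means between ages, with no pseudocount, for genes with a mean over the libraries of at least 0.1. No test was made, since each age was 1 sample. Counting half-widths are Poisson (95%) and cover counting error only, as cells of 1 library are not replicates. The members and gene lists were chosen with earlier results of these data known. Genes named in the text are the 5 most abundant of each subunit, the 5 highest and 5 lowest day 14 ratios, ratios past 1, the 3 highest and 3 lowest mean r with Mmp1 and with ImpL3, and tko, bonsai and TFAM. Other list genes, the clusters and the genes that lead them were picked after their values were seen. Cells were clustered per library without the 72 genes (2000 variable genes, 30 components, 15 neighbours, Leiden resolution 0.5), and no doublet caller was run. The code was tested on simulated data. Python 3.11.15, numpy 2.4.6, scipy 1.17.1, pandas 2.3.3, scanpy 1.11.5 and matplotlib 3.10.9 were used. There were 0 unused columns of per-sample values.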

Additional observations from a re-analysis of the deposited data

How the results depend on the processing

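Every alternative kept the direction of the day 14 and day 8 medians. For day 14 against day 4, the median of -0.61 became -0.81 with the cytosolic ribosomal protein genes left out of the cell total and -0.92 relative to the median gene, and the count of 48 genes became 3 with a threshold of 1 on the log2 scale. For day 8 against day 4, the median of -0.35 became -0.43 relative to the median gene, and the count of 8 genes became 14 with thinned cells, 22 relative to the median gene and 4 with day 5 as the baseline. The mean r of the module with Mmp1 (-0.11) became -0.18 given depth and -0.18 with the cytosolic ribosomal protein genes left out of the total, and -0.06 by ranks, where its sign turned at day 4 (0.03). Means of log values, pooled UMIs, a higher level filter or none, and leaving out the myoblast-like cluster moved no median by more than the counting error and no count by more than 1.5 times. Of the 25 members named, 22 lay below 0 at day 14 under each averaging, thinning and cell choice planned, and 24 relative to the median gene or with the cytosolic ribosomal protein genes left out. Among the alternatives chosen after seeing the data, the distance of the day 14 median from all genes was -0.65 against genes of the same length range, in place of -0.92. Those genes had a median length of 1262 bases, against 778.5 for the 72, so lengths were not matched. No paired analysis was possible because each age had 1 library. The planned search of promoters for motifs was not run, as no promoter sequences were used here. At these depths the day 14 ratio of each of the 72 genes was uncertain by 0.06 to 0.15 from counting alone. Other genes named went outside this range, with 0.02 for Non1 and 0.21 for mRRF1. The differences between discs and libraries are not measured.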
